A study of Homo sapiens with 8 samples.

Results

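Metallothioneins are small, cysteine-rich proteins that hold zinc and copper in the cytosol and trap toxic metals such as cadmium, and the 9 genes described here are 7 of them (MT2A, MT1E, MT1M, MT1F, MT1G, MT1H and MT1X), the zinc-sensing transcription factor gene MTF1 and SLC30A1, the gene of the zinc exporter ZnT1. They were chosen by name as the zinc-buffering circuit, every array feature (probe set) annotated to one of the symbols was kept, and 21 probe sets were found among the 49293 tested, which name 19605 genes. All samples were DU145, a prostate cancer cell line first grown from a brain metastasis. Aldrin-exposed cells were kept for 50 days in 1 µM Aldrin, a chlorinated cyclodiene insecticide, dissolved in DMSO and renewed after each passage, and Non-exposed cells had no treatment according to their labels. Total RNA of each condition was hybridised to 4 arrays, and the sources used here do not say whether the Non-exposed cells received DMSO or whether the replicates were separate cultures, so the p-values rest on the spread of these 8 arrays, which may be technical. The comparison asks whether prolonged exposure to the pollutant left the transcripts of this circuit at another level.

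When free zinc or cadmium in a cell rises, MTF1 binds short DNA motifs called metal response elements and switches on metallothionein genes and SLC30A1, so that zinc is bound in the cytosol or pumped out through the plasma membrane. Metallothionein genes are also induced by glucocorticoids and by oxidative stress, and prostate epithelium is known for its high zinc content, which falls in prostate tumours. In the human genome the 7 metallothionein genes lie on chromosome 16 in the order MT2A, MT1E, MT1M, MT1F, MT1G, MT1H and MT1X, among 16 annotated metallothionein genes and pseudogenes, while MTF1 and SLC30A1 are both on chromosome 1. The near-identity of these genes matters for array probes. By the array maker's naming, a probe set whose name ends in s_at shares all its probes with transcripts of other genes or variants, and one ending in x_at holds some probes that match other sequences. Of the 14 metallothionein probe sets 11 have such a name, 1 of them annotated to MT1M together with the pseudogenes MT1JP and MT1P3, and 3 do not, namely 11717385_a_at of MT1G, 11728397_at of MT1M and 11726385_a_at of MT1X.

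Promoter sequences, available for some of the members only, were compared by letters with the motif of MTF1. RefSeq windows of 300 bases on build GRCh38.p14, from 250 before to 50 after the annotated start, were matched for 5 of the 9 genes (MT2A, MT1H, MT1X, MTF1 and SLC30A1). They were searched on both strands for the core of the metal response element, spelled TGCACNC or TGCGCNC, and no matches overlapped. MT2A and MT1H held 8 cores each, MT1X held 4, SLC30A1 held 2 and MTF1 held 0. Over 35116 promoter windows 29.6% held at least 1 core, 8.60% at least 2, 0.601% at least 4 and 0.0199% at least 8. A match is only a match of letters, and binding was not measured. MT2A, MT1X and SLC30A1 are printed because they represent the most widely expressed metallothionein, a metallothionein with fewer cores and the exporter, each 5′ to 3′ on its own strand with the cores in capitals. The MT2A window is chr16:56608334-56608633 (plus strand), that of MT1X is chr16:56682220-56682519 (plus strand) and that of SLC30A1 is chr1:211579112-211579411 (minus strand).
MT2A: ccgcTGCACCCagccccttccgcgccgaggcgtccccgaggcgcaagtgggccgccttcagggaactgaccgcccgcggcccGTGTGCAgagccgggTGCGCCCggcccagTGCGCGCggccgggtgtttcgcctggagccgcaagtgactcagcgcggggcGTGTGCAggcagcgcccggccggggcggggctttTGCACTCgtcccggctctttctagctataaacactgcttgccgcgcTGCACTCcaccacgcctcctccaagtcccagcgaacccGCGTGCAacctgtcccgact
MT1X: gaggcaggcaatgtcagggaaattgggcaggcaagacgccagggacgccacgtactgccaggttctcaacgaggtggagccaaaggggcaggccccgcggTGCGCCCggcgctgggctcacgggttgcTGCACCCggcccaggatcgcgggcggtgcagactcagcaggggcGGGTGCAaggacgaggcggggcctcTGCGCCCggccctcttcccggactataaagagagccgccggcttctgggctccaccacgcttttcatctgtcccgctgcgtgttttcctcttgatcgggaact
SLC30A1: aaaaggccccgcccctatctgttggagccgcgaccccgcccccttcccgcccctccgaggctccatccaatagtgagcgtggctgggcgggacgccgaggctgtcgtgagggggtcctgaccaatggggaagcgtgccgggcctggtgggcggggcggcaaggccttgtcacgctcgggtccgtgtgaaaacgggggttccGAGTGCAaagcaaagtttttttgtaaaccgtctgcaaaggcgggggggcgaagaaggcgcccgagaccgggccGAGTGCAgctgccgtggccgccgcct
In MT1X and MT1H a core on the gene strand starts 53 bases before the annotated start and one on the other strand 78 bases before it. In MT2A a core on the gene strand starts 54 bases before the start and one on the other strand 88 bases before it. The cores of SLC30A1, both on the strand opposite to the gene, start 49 bases before and 24 bases after its start.

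**Figure D1:**
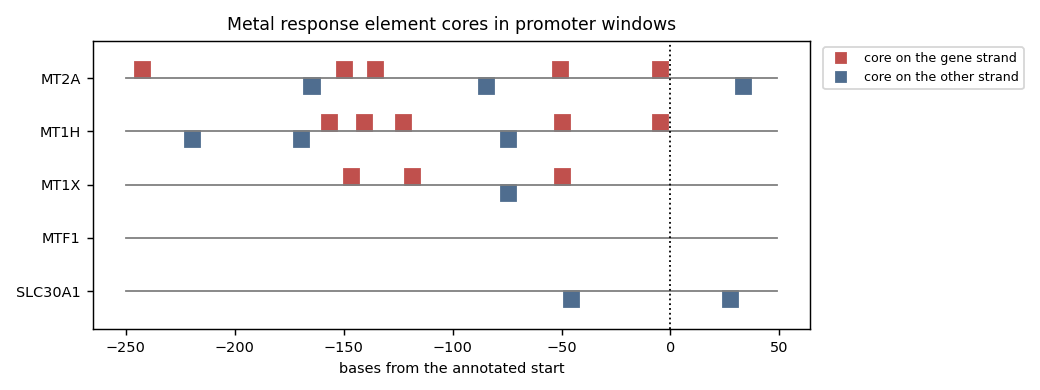
Position of each metal response element core (TGCACNC or TGCGCNC) in the 300-base windows of MT2A, MT1H, MT1X, MTF1 and SLC30A1. The horizontal axis gives bases from the annotated start (dotted line), marks above a line are cores on the gene strand and marks below it cores on the other strand. MT2A and MT1H carry 8 cores each and MTF1 carries 0.

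No member was called different between Aldrin-exposed and Non-exposed cells. The values are log2 intensities per probe set, made by the authors with RMA, which subtracts background, gives all arrays the same distribution and summarises the probes, so a step of 1 is a doubling. limma was fitted to all probe sets (two-sided), p-values were adjusted by Benjamini-Hochberg and the threshold was 0.05. Of the 21 member probe sets 0 passed, and every one had an adjusted p that rounds to 1, where 0.00203% of all probe sets passed. At an unadjusted p under 0.05 limma counted 2 of the 21, SLC30A1 11726006_at and MT1M 11728397_at, both with the higher mean in Aldrin-exposed cells, against 3.07% of all probe sets (1.22% higher and 1.85% lower in Aldrin-exposed cells). With unequal variances per probe set the count was 0 of the 21. None of the 21 had its 4 Aldrin-exposed arrays clear of the 4 Non-exposed arrays, where 1.99% of all probe sets did (0.643% higher and 1.35% lower). The 95% intervals of the 21 probe sets lay between 0.633-fold and 1.53-fold. A doubling or a halving of the measured intensity fell outside each of these intervals, taken singly. MT1G 11717386_s_at averaged 3.86 on Aldrin-exposed and 3.85 on Non-exposed arrays, beside a lowest value of 3.55 for any probe set. MT2A 11753900_x_at averaged 13.90 and 13.84 in that order, beside a highest value of 14.76. Near either end of the scale a change of transcript may not show in full, so such an interval does not bound it. In total RNA of a culture, fewer cells with a transcript and less transcript per cell cannot be told apart.

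**Figure D2:**
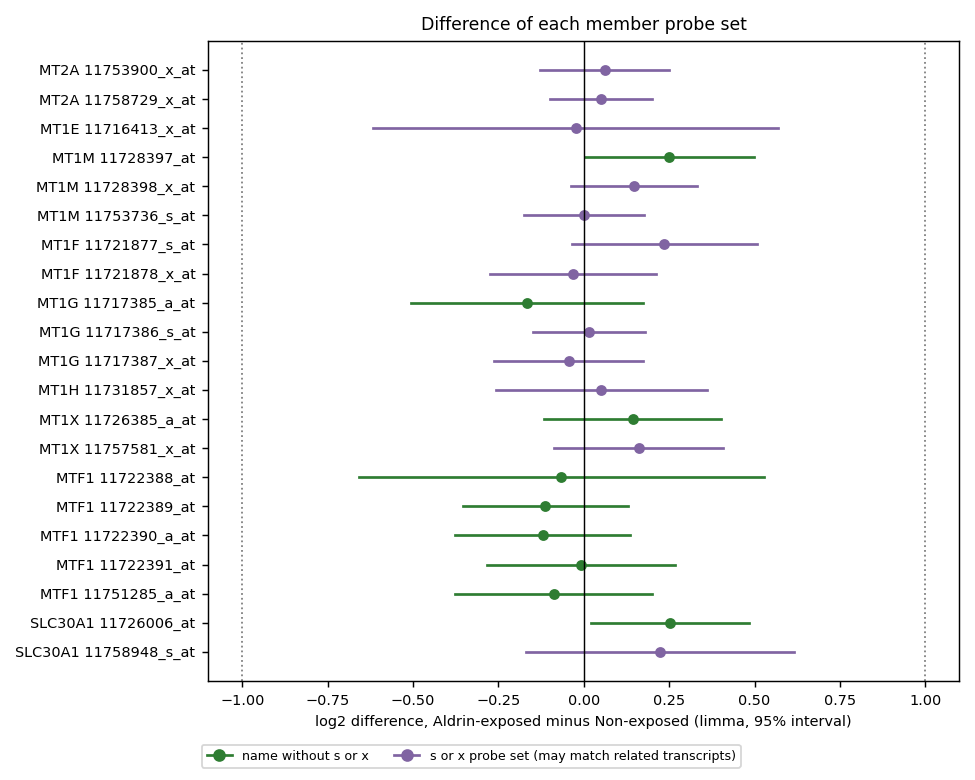
Difference of the mean log2 intensity, Aldrin-exposed minus Non-exposed, for each of the 21 member probe sets (points) with its 95% interval from limma (lines, n = 4 arrays per condition), names with s or x in violet and others in green. Dotted lines mark a doubling and a halving. The intervals lie between 0.633-fold and 1.53-fold, and those of MT1M 11728397_at and SLC30A1 11726006_at lie just above 0.

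MT2A, the metallothionein most broadly expressed in human tissues, read near the top of the scale. Its probe set 11753900_x_at had 13.78, 13.93, 14.03 and 13.87 on the Aldrin-exposed arrays, against 13.88, 13.82, 13.72 and 13.94 on the Non-exposed arrays. The conditions overlapped, and all 8 arrays lay within 0.307. The log2 difference was 0.06 (standard error 0.08, 95% interval -0.13 to 0.25), or 1.04-fold with an interval from 0.915-fold to 1.19-fold. Its mean level exceeded that of 99.9% of probe sets, and the highest value of any probe set was 14.76. The second probe set, 11758729_x_at, averaged 9.15 ± 0.05 in Aldrin-exposed and 9.10 ± 0.03 in Non-exposed arrays (SD, n = 4 each). Its log2 difference of 0.05 (interval -0.10 to 0.20) was about that of the first. Probe sets differ in how strongly they hybridise, so the share of probe sets with a lower mean describes how bright a signal was and does not rank transcript amounts.

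MT1X and MT1M, both metal-binding members of the MT1 group, had the higher mean in Aldrin-exposed cells on every probe set. The conditions overlapped on each, and at 11753736_s_at of MT1M the difference rounded to 0.00. MT1X 11726385_a_at read 9.41, 9.47, 9.39 and 9.78 in Aldrin-exposed cells, against 9.58, 9.39, 9.23 and 9.27 in Non-exposed cells. Aldrin-exposed replicate 4 was the highest of the 8 arrays, and the other 3 lay among the Non-exposed values. Its log2 difference was 0.14 (interval -0.12 to 0.40), and that of the other MT1X probe set, 11757581_x_at, was 0.16 (interval -0.09 to 0.41). MT1M 11728397_at read 8.15, 8.44, 8.33 and 8.15 in Aldrin-exposed cells, against 8.22, 7.98, 7.81 and 8.05 in Non-exposed cells. Non-exposed replicate 1 stood above 2 of the Aldrin-exposed arrays, and the other 3 below all of them. The log2 difference was 0.25 (standard error 0.11, unadjusted p = 0.0477 and adjusted p = 1 from limma), and the exact permutation test gave p = 0.0857, two-sided, where 4 against 4 arrays allow no p below 0.0286. The other probe sets of MT1M had log2 differences of 0.15 (11728398_x_at) and 0.00 (11753736_s_at, shared with the pseudogenes).

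The probe sets of MT1F, another zinc-binding member of the group, did not point the same way. MT1F 11721877_s_at read 10.73, 11.09, 10.61 and 10.79 in Aldrin-exposed cells, against 10.61, 10.41, 10.77 and 10.50 in Non-exposed cells. Aldrin-exposed replicate 2 was the highest array, and the conditions overlapped. Its log2 difference was 0.24 (interval -0.04 to 0.51, unadjusted p = 0.0807, adjusted p = 1 from limma), and without Aldrin-exposed replicate 2 it was 0.14. The second probe set, 11721878_x_at, averaged 9.30 ± 0.20 on Aldrin-exposed and 9.33 ± 0.09 on Non-exposed arrays (SD, n = 4 each), a log2 difference of -0.03.

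**Figure D3:**
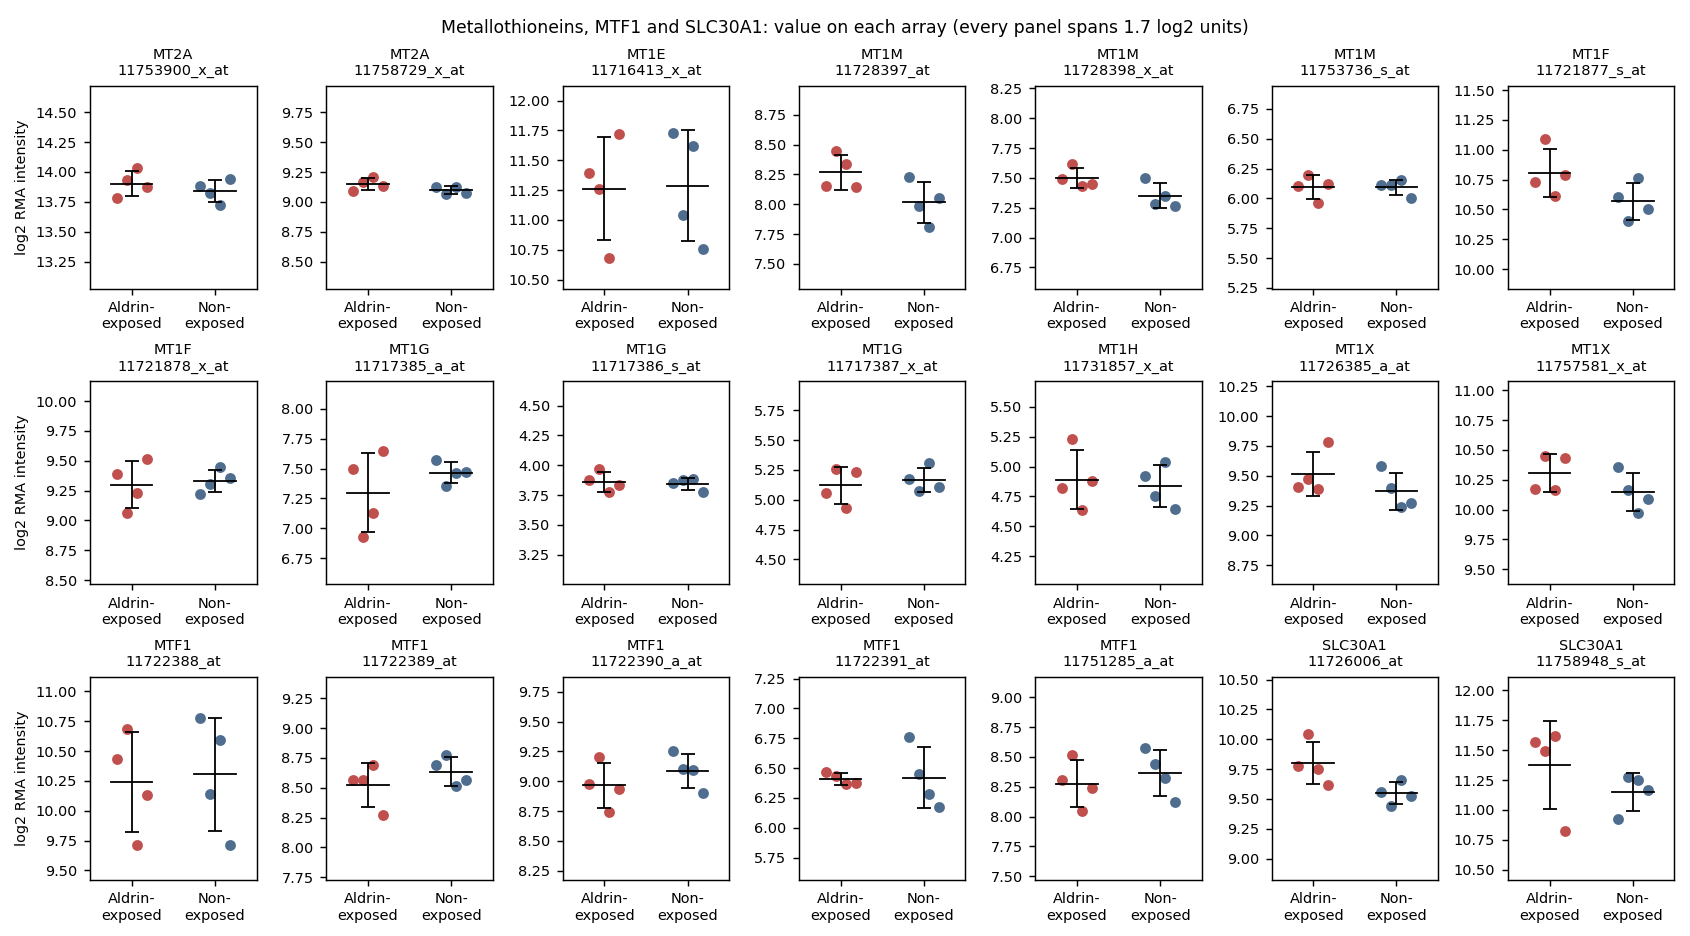
Value of each member probe set on each array (points, log2 RMA intensity) in Aldrin-exposed (left, red) and Non-exposed cells (right, blue), with the mean and SD of 4 arrays (black). All panels span the same height, so spreads can be set side by side, and levels differ between panels. The points of both conditions overlap in all 21 panels, and MT1E and MTF1 11722388_at spread furthest.

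MT1E, a member of the MT1 group that binds the same metals, varied more between arrays of 1 condition than between the conditions. Its probe set 11716413_x_at read 11.40, 11.26, 10.68 and 11.72 in Aldrin-exposed cells, against 11.73, 11.04, 11.62 and 10.76 in Non-exposed cells. Both conditions held arrays near the top and near the bottom of a range of 1.05, about a doubling. The log2 difference was -0.02 with an interval from -0.62 to 0.57, the widest of the metallothioneins. The lowest arrays were Aldrin-exposed replicate 3 and Non-exposed replicate 4. The same pair was lowest for MTF1 11722388_at, which read 10.43, 10.68, 9.71 and 10.13 in Aldrin-exposed cells, against 10.77, 10.14, 10.60 and 9.72 in Non-exposed cells. This pair was the lowest of its condition in 9 of the 21 member probe sets (42.9%) and in 20.3% of all probe sets.

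These 2 arrays had the highest weights on the main component of the deviations within conditions over all probe sets. It took 58.3% of the variance of these deviations, and its weight was 0.566 on Aldrin-exposed replicate 3 and 0.506 on Non-exposed replicate 4. The other 6 ran from -0.357 to 0.189. Non-exposed replicate 2 was at 0.189, apart from Non-exposed replicates 1 and 3 at -0.339 and -0.357. This component was entered as a covariate, a choice made after the data were seen. Taken from deviations within conditions, it cannot change a log2 difference. It also takes up part of the spread of these same data, so lower p-values follow by construction and are no further support. With it, 3 of the 21 member probe sets had an unadjusted p under 0.05 (SLC30A1 11726006_at, MT1F 11721877_s_at and MT1M 11728397_at), where 8.49% of all probe sets had one. None of the members passed after adjustment, the lowest being adjusted p = 0.468 for SLC30A1 11726006_at from limma. Aldrin-exposed replicate 2 differed in its control probe sets. The mean level of the bioB spike-in controls was 11.2 on it, against 9.80 to 10.3 on the other 7 arrays. The 18S ribosomal control at its 5′ end was at 11.8, against 13.2 to 13.6. This array was the highest of the Aldrin-exposed arrays in 12 of the 21 member probe sets, compared with 32.9% of all probe sets. Without it 0 of the 21 had an unadjusted p under 0.05, and the log2 difference was then 0.17 for SLC30A1 11726006_at and 0.19 for MT1M 11728397_at. The count was also 0 without Non-exposed replicate 2 and without Non-exposed replicate 4. Other controls differed between arrays too. The GAPDH control read 3′ minus 5′ by 0.651, 0.621 and 0.561 on Aldrin-exposed replicates 3, 2 and 1, and by 0.408 on replicate 4. On Non-exposed replicates 2 and 4 it was 0.589 and 0.587, against 0.397 and 0.388 on replicates 1 and 3. The high-GC background ranged from 9.41 on Aldrin-exposed replicate 3 to 10.1 on Non-exposed replicate 3. What part these array properties have in the members' values was not tested.

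**Figure D4:**
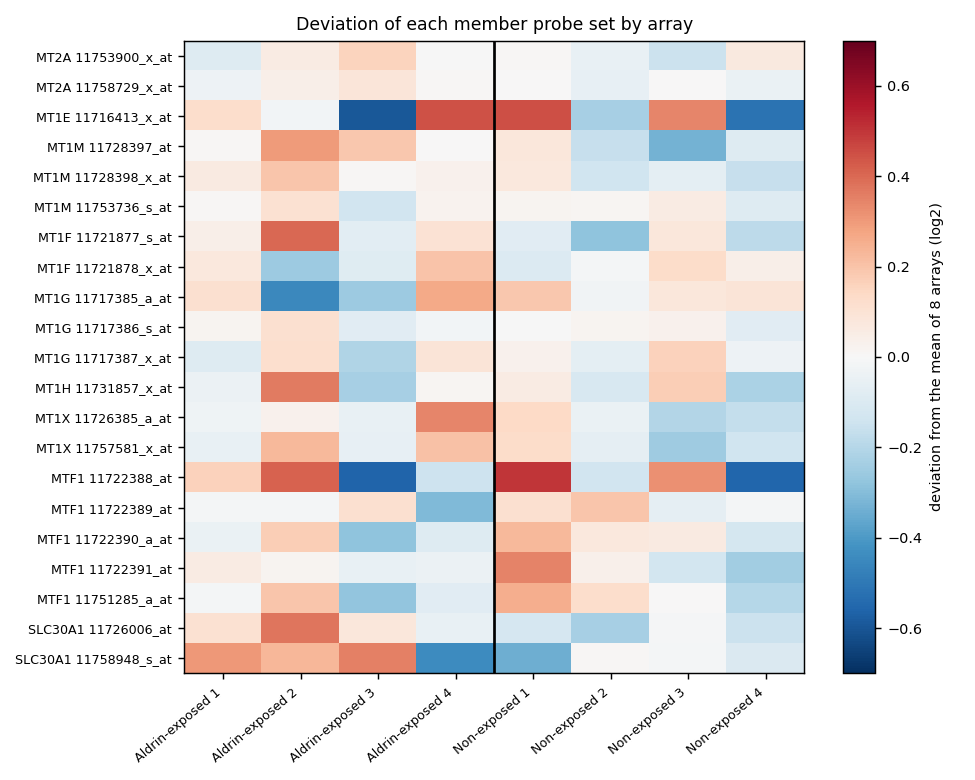
Deviation of each member probe set on each array from its mean over the 8 arrays (colour, log2 units, red above and blue below), Aldrin-exposed arrays left of the line and Non-exposed arrays right of it. MT1E and MTF1 11722388_at are low on Aldrin-exposed replicate 3 and on Non-exposed replicate 4, and SLC30A1 11758948_s_at is low on Aldrin-exposed replicate 4.

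MT1G and MT1H, which are prominent in liver and kidney among other tissues, had dim probe sets. MT1G 11717386_s_at averaged 3.86 ± 0.08 on Aldrin-exposed and 3.85 ± 0.05 on Non-exposed arrays (SD, n = 4 each), beside a lowest value of 3.55 for any probe set tested. Only 0.256% of probe sets had a lower mean. MT1G 11717387_x_at averaged 5.12 ± 0.15 on Aldrin-exposed and 5.16 ± 0.10 on Non-exposed arrays, above 16.6% of probe sets. MT1H 11731857_x_at averaged 4.89 ± 0.25 on Aldrin-exposed and 4.84 ± 0.18 on Non-exposed arrays, above 12.8% of probe sets. The remaining probe set of MT1G, 11717385_a_at, read 7.49, 6.93, 7.13 and 7.64 in Aldrin-exposed cells, against 7.57, 7.36, 7.46 and 7.47 in Non-exposed cells. Its Aldrin-exposed arrays spread to both sides of the Non-exposed ones. The log2 difference was -0.17 (interval -0.51 to 0.17). It was -0.04 without Aldrin-exposed replicate 2, -0.11 without Aldrin-exposed replicate 3, -0.28 without Aldrin-exposed replicate 4 and -0.01 with arrays weighted by their quality.

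Over the 14 metallothionein probe sets 10 had the higher mean in Aldrin-exposed cells and 4 the lower, where 48.2% of all probe sets had the higher mean. Their median log2 difference was 0.05 and their range -0.17 to 0.25, while the median of all probe sets was -0.005. Their median SD within a condition was 0.156, beside 0.164 for all probe sets. The 3 probe sets without s or x in their names had a median of 0.14 and the 11 others one of 0.05. These 3 were of both signs, at -0.17 (MT1G), 0.14 (MT1X) and 0.25 (MT1M). Several of these probe sets can read the same transcripts, so the 14 are not independent measurements.

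MTF1, the transcription factor that senses zinc, had the lower mean in Aldrin-exposed cells on all 5 of its probe sets over the 8 arrays, each by less than the spread of the arrays. The sign of 2 of them depended on single arrays. At 11722388_at the log2 difference of -0.07 was 0.11 without Aldrin-exposed replicate 3, 0.09 without Non-exposed replicate 1 and 0.03 without Non-exposed replicate 3, and at 11722391_at the value of -0.01 was 0.11 without Non-exposed replicate 1 and between 0.00 and 0.01 without Aldrin-exposed replicate 3, Aldrin-exposed replicate 4 or Non-exposed replicate 2. The log2 differences ran from -0.12 to -0.01 and the unadjusted p from 0.317 to 0.948, with adjusted p = 1 from limma throughout. The probe set with the largest difference, 11722390_a_at, read 8.98, 9.20, 8.74 and 8.94 in Aldrin-exposed cells, against 9.25, 9.10, 9.09 and 8.90 in Non-exposed cells. Only Aldrin-exposed replicate 3 lay below all Non-exposed arrays. On 4 of the 5 probe sets Aldrin-exposed replicate 3 and Non-exposed replicate 4 were again the lowest of their conditions.

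SLC30A1, whose product exports zinc across the plasma membrane, had the smallest p of the 9 genes and both its probe sets higher in mean in Aldrin-exposed cells. SLC30A1 11726006_at read 9.78, 10.05, 9.75 and 9.62 in Aldrin-exposed cells, against 9.56, 9.44, 9.66 and 9.53 in Non-exposed cells. Aldrin-exposed replicates 1, 2 and 3 stood above all Non-exposed arrays, and replicate 4 fell below Non-exposed replicate 3. The log2 difference was 0.25 (standard error 0.10), or 1.19-fold with a 95% interval from 1.02-fold to 1.40-fold (unadjusted p = 0.0347, adjusted p = 1 from limma). In the exact permutation test it had p = 0.0571, two-sided. SLC30A1 11758948_s_at read 11.57, 11.50, 11.62 and 10.83 in Aldrin-exposed cells, against 10.92, 11.28, 11.25 and 11.16 in Non-exposed cells. Here too replicates 1, 2 and 3 were above every Non-exposed array, and replicate 4 was the lowest of all 8. With all arrays its log2 difference was 0.22 (interval -0.17 to 0.62, adjusted p = 1 from limma), and without Aldrin-exposed replicate 4 it was 0.41 (adjusted p = 0.996 from limma).

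Genes of zinc and copper traffic outside the 9 had differences of both signs, and none of their probe sets passed the threshold. Of 13 probe sets of 6 further metallothionein genes and pseudogenes (MT1B, MT1DP, MT1IP, MT1JP, MT3 and MT4) 8 had the higher mean in Aldrin-exposed cells and 5 the lower, with a median log2 difference of 0.03. One of them is 11753736_s_at, shared with MT1M and already described, and without it 7 of 12 were higher. MT4, a metallothionein of stratified squamous epithelium, read 6.43, 6.33, 6.16 and 6.20 in Aldrin-exposed cells, against 6.45, 6.48, 6.71 and 6.45 in Non-exposed cells. These conditions did not overlap, as in 1.35% of all probe sets in the lower direction, and the log2 difference was -0.25 (unadjusted p = 0.0288, adjusted p = 1 from limma). The pseudogene MT1IP had the next smallest p, with a log2 difference of -0.15 at 11763941_at.

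The SLC30A family, most of whose members move zinc out of the cytosol, had 18 of 27 probe sets higher and 9 lower in mean (9 genes other than SLC30A1, median log2 difference 0.03). Of these, 0 had an unadjusted p under 0.05. SLC30A6, of the Golgi, averaged 10.59 ± 0.23 on Aldrin-exposed and 10.31 ± 0.14 on Non-exposed arrays (SD, n = 4 each), and its 4 probe sets had log2 differences from 0.08 to 0.32. SLC30A2, of secretory vesicles, averaged 5.95 ± 0.17 on Aldrin-exposed and 6.11 ± 0.13 on Non-exposed arrays. The conditions were clear of each other at 1 of the 27, where 0.643% of all probe sets were so in the higher direction. It was 11748617_a_at of SLC30A9, named after its values were seen, with means of 10.83 on Aldrin-exposed and 10.75 on Non-exposed arrays. Transporters of the SLC39A family, which bring zinc into the cytosol, had 29 of 50 probe sets higher and 21 lower (14 genes, median 0.02). SLC39A11 11718461_at read 10.11, 10.44, 10.62 and 10.44 in Aldrin-exposed cells, against 9.78, 9.87, 9.85 and 10.41 in Non-exposed cells. Non-exposed replicate 4 reached the Aldrin-exposed range and the other 3 stayed below it. The log2 difference was 0.42 (unadjusted p = 0.025, adjusted p = 1 from limma), while the 3 probe sets of the gene ran from -0.12 to 0.42. SLC39A8, a carrier of zinc, manganese and cadmium, had log2 differences from -0.23 to 0.17 over 6 probe sets.

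Copper handling, which metallothioneins share, had 13 of 21 probe sets higher and 8 lower in mean (8 genes, median log2 difference 0.05). The copper importer SLC31A1 had log2 differences from 0.10 to 0.37 over its 4 probe sets, and SLC31A2, a related protein of endosomes, from -0.18 to 0.18 over 4.

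A list of stress genes that respond to metals and electrophiles had 15 of 26 probe sets higher and 11 lower (10 genes, median log2 difference 0.01). GCLC, the catalytic subunit of the enzyme that starts glutathione synthesis, was the lowest at 1 of its 4 probe sets. GCLC 11759894_at read 8.01, 8.23, 7.98 and 7.98 in Aldrin-exposed cells, against 8.38, 8.55, 8.67 and 8.86 in Non-exposed cells. All Aldrin-exposed arrays lay below all Non-exposed arrays, as in 1.35% of all probe sets. The log2 difference was -0.57 (standard error 0.11, unadjusted p = 6.86e-04, adjusted p = 1 from limma). The remaining probe sets of the gene, each brighter, had the higher mean in Aldrin-exposed cells, with log2 differences of 0.04, 0.08 and 0.14. HSPA1A, an inducible heat shock protein, had -0.19 to 0.06 over 4 probe sets, all annotated to a second gene as well.

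Genes of the glucocorticoid response, added because the same hormones raise MT2A and MT1X, were the receptor gene NR3C1 and 7 genes that the receptor regulates. The 7 had 6 of 25 probe sets higher and 19 lower in mean (median log2 difference -0.08), and NR3C1 had 1 of 10 higher and 9 lower (median -0.05). TSC22D3, a direct target of the glucocorticoid receptor, averaged 7.76 ± 0.16 on Aldrin-exposed and 7.53 ± 0.10 on Non-exposed arrays (SD, n = 4 each; unadjusted p = 0.0438, adjusted p = 1 from limma), and its 3 probe sets had log2 differences from 0.03 to 0.23. KLF9, another target, ran from -0.19 to 0.32 over 4 probe sets.

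**Figure D5:**
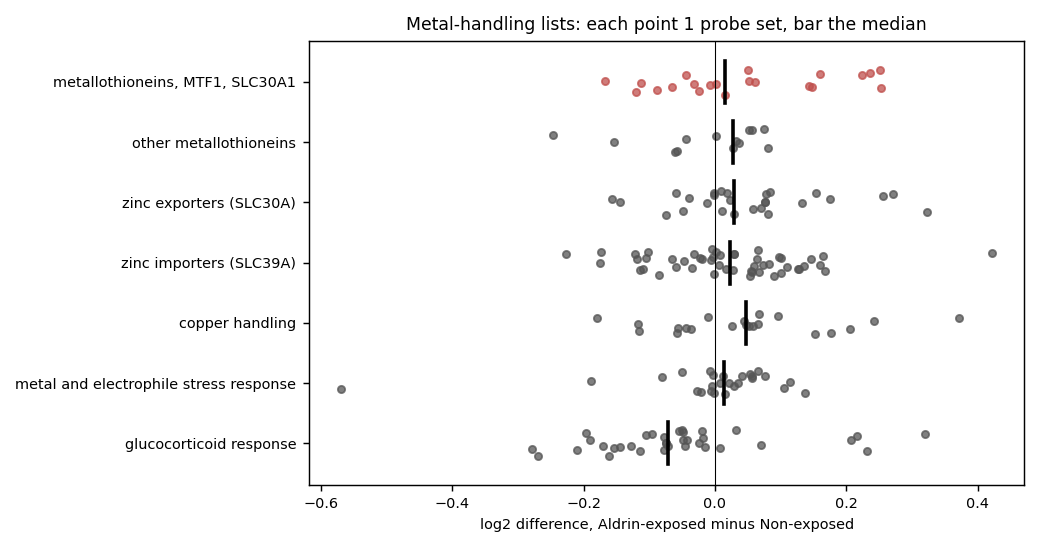
Log2 difference, Aldrin-exposed minus Non-exposed, of each probe set (points) of the 9 genes described here (red, top) and of 6 further lists (grey), with the median of each list (black bar), NR3C1 drawn within the glucocorticoid list and 11753736_s_at drawn under both metallothionein lists. Medians lie between -0.07 and 0.05, and GCLC 11759894_at at -0.57 is the point furthest to the left.

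The genes whose pattern over the 8 arrays was most like that of MT2A 11753900_x_at were CFAP97 (Pearson r = 0.986), BCLAF1 (r = 0.982), AP1G1 (r = 0.978), ALG8 (r = 0.977) and MYADM (r = 0.977). These are the highest of 44968 probe sets of 1 gene, of which 339 had r over 0.9, and the points share 8 arrays and their array-wide deviations. Among the members, r to this probe set was 0.57 for the other MT2A probe set, 0.73 for MT1M 11728397_at and -0.63 for MT1E.

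As a check of the label, the epithelial genes KRT18, KRT8, EPCAM and CDH1 had means from 9.30 to 12.4 on Aldrin-exposed arrays, against 9.76 to 12.5 on Non-exposed arrays, each at its brightest probe set. The luminal prostate genes KLK3, KLK2 and TMPRSS2 (3 of 5 matched) lay between 5.60 and 6.30 on Aldrin-exposed arrays, against 5.57 to 6.32 on Non-exposed arrays. Fibroblast genes had means from 4.19 to 8.12 on Aldrin-exposed arrays, against 4.17 to 8.30 on Non-exposed arrays, the lowest being LUM and the highest COL1A1. Endothelial genes had means from 6.56 to 7.73 on Aldrin-exposed arrays, against 6.52 to 7.78 on Non-exposed arrays. Among leukocyte genes the defining PTPRC was at 4.76 on Aldrin-exposed and 4.75 on Non-exposed arrays, while CD68, a lysosomal protein found in many cell types, was at 11.8 and 11.9 in that order. All 15 probe sets of the 4 epithelial genes had the lower mean in Aldrin-exposed cells (median log2 difference -0.13), where 48.2% of all probe sets had the higher one. Of the 15, 2 had an unadjusted p under 0.05 from limma, against 1.85% of all probe sets in the lower direction. These 2 are the only probe sets of CDH1, so they stand for 1 gene. Several probe sets read the same gene, and the 15 are not independent measurements. The mean level of the 4 genes was 11.1 to 11.3 on the Aldrin-exposed arrays, against 11.4 to 11.6 on the Non-exposed arrays. CDH1, E-cadherin, had the largest difference, at another probe set with 8.17 ± 0.33 on Aldrin-exposed and 8.84 ± 0.25 on Non-exposed arrays (SD, n = 4 each, unadjusted p = 0.00427, adjusted p = 1 from limma). What part this has in the members' values was not tested.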

How the data were processed

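Biotin-labelled material from DU145 total RNA was hybridised to Affymetrix arrays, 4 for Aldrin-exposed and 4 for Non-exposed cells. The authors deposited RMA values on the log2 scale, 1 for each probe set (RMA version and chip definition not given in the sources used here), so shifts of a whole array had been removed. The methods name the HG-U219 array plate, whereas the annotation given for the deposited table is that of the PrimeView array. Of 49395 probe sets 102 controls were left out. By the platform annotation 44988 of the rest have 1 gene, 1832 several and 2473 none here. The 49293 left were fitted with lmFit and eBayes of limma 3.58.1 (R 4.3.3), and two-sided p-values were adjusted by Benjamini-Hochberg, with a threshold of 0.05. Single probe sets were also compared by exact permutation of the 8 arrays (70 splits). The comparison was tested on simulated data. The members and lists were chosen with earlier results of these data known. Named were all members, the 2 genes of smallest p of each further list, and the 5 genes most like MT2A. MT1A and MT1L were not matched to a probe set, and promoters were not matched for MT1E, MT1F, MT1G and MT1M. Alternatives were a t-test with unequal variances, a variance trend with robust eBayes, array weights, a replicate block, 2 further normalizations, removal of dim probe sets, probe sets of 1 gene, 1 probe set per gene and each array left out in turn. Precision is limited by the number of arrays. Figures were drawn with matplotlib 3.10.9 in Python 3.11.15.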

Additional observations from a re-analysis of the deposited data

Results flagged for a closer look

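In 4 of 66 sets of 4 arrays, the members and the named genes of the further lists in each condition, 1 array lay far from the other 3 by Dixon's criterion, where chance gives about 1 in 20. SLC30A1 11758948_s_at read 10.83 on Aldrin-exposed replicate 4, and the nearest other Aldrin-exposed array read 11.50, a gap of 0.846 of the range. GCLC 11759894_at read 8.23 on Aldrin-exposed replicate 2 and 8.01 on the nearest, a gap of 0.867 of the range. MT4 11735987_at read 6.71 on Non-exposed replicate 3 and 6.48 on the nearest, a gap of 0.888 of the range. SLC39A11 11718461_at read 10.41 on Non-exposed replicate 4 and 9.87 on the nearest, a gap of 0.863 of the range.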

How the results depend on the processing

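Over up to 17 alternative settings per probe set, 13 of the 21 member probe sets kept the sign of their difference in each setting run and 8 did not in at least 1, and none passed after adjustment (lowest adjusted p = 0.468 from limma, with the array-wide component as a covariate). The 8 were the probe set of MT1E, 11721878_x_at of MT1F, 11717386_s_at and 11717387_x_at of MT1G, that of MT1H, 11753736_s_at of MT1M, and 11722388_at and 11722391_at of MTF1. Some settings leave a difference unchanged by construction and cannot turn its sign. They are the t-test with unequal variances, the variance trend, the replicate block, the component covariate and the removal of dim probe sets. The member probe sets at an unadjusted p under 0.05 numbered 2, with 1 when dim probe sets were left out and 1 after a second quantile normalization. The count was 0 by the t-test with unequal variances and 0 with a variance trend and robust eBayes together. It was also 0 without Aldrin-exposed replicate 3 and Non-exposed replicate 4 together, a setting added after the data were seen. Leaving out 1 array gave 0 to 3, with 0 without Aldrin-exposed replicate 2, Non-exposed replicate 2 or Non-exposed replicate 4. The median log2 difference of the metallothionein probe sets, 0.05, was 0.10 when dim probe sets were left out and 0.02 to 0.09 with 1 array left out. Of all probe sets 1 was called, and 0 were called when dim probe sets were left out, by the t-test with unequal variances and without the same 2 arrays together, while leaving out 1 array gave 0 or 1. The cause was not tested.

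With the replicate number as a block, 0 of the 21 member probe sets had an unadjusted p under 0.05 and 0 probe sets were called. Deviations of same-numbered arrays correlated from -0.72 to 0.31. The array-wide component makes up much of these deviations, so the correlations cannot say whether same-numbered arrays were cultured or processed together.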
